A study of Mus musculus with 12 samples.

Results

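The genes of the circadian clock described here are 10 of the 23284 gene symbols that both count tables of the study list, and were chosen by symbol. They are Arntl, Per1, Per2, Per3, Ciart (given under its older symbol Gm129 in the tables), Nr1d1, Nr1d2, Dbp, Hlf and Tef. They were picked with measured values of these libraries in view, so the differences between genotypes given for them are descriptions and carry no test. Poly(A) RNA was sequenced from the spleen and from the axillary lymph node of mice that lack apoE, through which receptors take up lipoprotein remnants, together with apoA-I, the scaffold of high density lipoprotein (DKO). The other genotype, DKO/hA-I, carries the same pair of deficiencies and overexpresses human apoA-I. All mice were 30 weeks old and ate a normal laboratory diet, and each of the 4 groups holds 3 libraries. The animal codes in the labels differ between the tissues, so spleens and nodes came from different animals. The promoter of the human apoA-I transgene, the sex of the animals and the hour at which tissue was taken were not stated in the labels used here.

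The mammalian clock is a feedback loop of transcription. Arntl (BMAL1) pairs with CLOCK or NPAS2 on E-box elements and switches on the Period and Cryptochrome genes, whose proteins return to block that pair. The same pair drives the nuclear receptors Nr1d1 and Nr1d2 (REV-ERB alpha and beta), which silence Arntl through ROR elements, so Arntl transcripts peak out of phase with those of Nr1d1 and Dbp. Dbp, Tef and Hlf are related output factors that carry the rhythm to other genes through D-box elements. Clocks of this kind run in macrophages and lymphocytes, and the level of these transcripts in one tissue sample therefore depends on the hour of sampling.

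The letters that these factors read were searched in the promoters of the members, taken from RefSeq (build GRCm38.p6) as windows of 300 bases, 250 before the transcription start and 50 from it on. Of the 10 members, 9 matched by symbol, with 12 windows in all, and Per2 is named only. The E-box was searched as CACGTG, the weaker E'-box as CACGTT, the D-box as TTATGTAA or TTATGCAA, the ROR element as TAGGTCA or TGGGTCA and the cAMP response element as TGACGTCA, on both strands, and no match overlapped another. Of 32851 promoter windows of the same length in the table, 7.15% held the E-box, 4.68% the E'-box, 1.66% the D-box, 6.45% the ROR element and 1.79% the cAMP response element. The 4 windows below are shown because their genes stand for the patterns in the values that follow. Among the replicates of a group, Ciart and Per3 tended to deviate with Dbp and Arntl, less closely, against it. Per1 kept an order of its own. For Arntl and Per1 only the window that held a match is shown. Each window is written 5′ to 3′ on the strand of its gene with the matches in capitals.
Ciart, chr3:95882179-95882478, minus strand, 3 E-boxes: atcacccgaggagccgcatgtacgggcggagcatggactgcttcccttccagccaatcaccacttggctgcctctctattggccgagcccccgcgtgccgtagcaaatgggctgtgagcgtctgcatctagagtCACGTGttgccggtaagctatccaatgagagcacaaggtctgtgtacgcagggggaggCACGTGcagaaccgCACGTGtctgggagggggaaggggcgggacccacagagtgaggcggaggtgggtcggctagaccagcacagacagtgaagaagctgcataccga
Per3, chr4:151044616-151044915, minus strand, 2 D-boxes: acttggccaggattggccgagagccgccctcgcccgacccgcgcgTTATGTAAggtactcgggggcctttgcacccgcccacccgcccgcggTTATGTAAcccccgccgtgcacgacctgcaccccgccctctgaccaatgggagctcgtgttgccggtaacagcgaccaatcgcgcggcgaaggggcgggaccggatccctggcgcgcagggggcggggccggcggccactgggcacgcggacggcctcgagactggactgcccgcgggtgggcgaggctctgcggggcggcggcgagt
Arntl, chr7:113207261-113207560, plus strand, 1 ROR element: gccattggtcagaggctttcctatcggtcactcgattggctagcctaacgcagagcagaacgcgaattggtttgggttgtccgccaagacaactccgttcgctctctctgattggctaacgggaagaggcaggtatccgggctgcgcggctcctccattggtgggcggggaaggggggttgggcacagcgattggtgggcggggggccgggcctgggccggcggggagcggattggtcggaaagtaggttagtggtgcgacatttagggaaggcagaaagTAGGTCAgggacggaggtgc
Per1, chr11:69098699-69098998, plus strand, 1 E-box and 1 D-box: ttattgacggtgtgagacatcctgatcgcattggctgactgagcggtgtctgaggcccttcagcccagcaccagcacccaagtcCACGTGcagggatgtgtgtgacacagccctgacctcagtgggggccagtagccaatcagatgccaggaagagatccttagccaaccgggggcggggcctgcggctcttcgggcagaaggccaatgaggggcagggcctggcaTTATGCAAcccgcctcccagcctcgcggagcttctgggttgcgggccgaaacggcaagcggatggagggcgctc
The 3 E-boxes of Ciart begin 116, 58 and 44 bases before the start, and the 2 D-boxes of Per3 begin 205 and 158 bases before it. The ROR element of Arntl begins 30 bases after the start. Each of the 2 Tef windows held 1 E-box, the Nr1d1 window 1 E'-box and the Hlf window 1 cAMP response element. No such letters stood in the Dbp and Nr1d2 windows or in the other windows of Arntl and Per1, which says only that they are not in these 300 bases. A match is a string of letters and not a measured binding site.

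The libraries held 5911835 to 11950825 counts, and every member had counts in all 12 of them. Node DKO replicate 2 had the lowest total, with 28 counts for Dbp, 20 for Hlf and 56 for Nr1d1. That library was the lowest node in CPM for Hlf, Tef, Nr1d1, Nr1d2 and Per3. Levels are given as CPM, counts scaled to library size with TMM factors. The tissue labels were checked on Spic, a transcription factor of red pulp macrophages, at 100.6 to 109.4 CPM in spleens and 17.3 to 31.1 CPM in nodes, and on Glycam1, a ligand made by high endothelial vessels of nodes, at 0.0866 to 0.327 CPM in spleens and 45.7 to 176.4 CPM in nodes. Mouse Apoa1 had 0 to 13 counts in every library, but it is deficient in both genotypes and so does not check the genotype labels. The pseudogene Rpl31-ps12 stood at 0.0971 to 0.218 CPM in DKO spleens and 52.6 to 74.9 CPM in DKO/hA-I spleens, and the other way round in nodes, at 58.7 to 90.1 CPM in DKO and 0.0907 to 0.108 CPM in DKO/hA-I. Directions between genotypes below are therefore those of the labels, and would turn in a tissue whose labels were exchanged. In bulk tissue, fewer cells of a type and less RNA per cell cannot be told apart.

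Per kilobase of exon, the members spanned more than an order of magnitude, and the strongest were the same 4 genes in both tissues. In spleen the mean over 6 libraries was 14.3 ± 4.10 CPM per kb (SD) for Nr1d2, 11.9 ± 3.74 for Nr1d1, 11.7 ± 4.01 for Per1 and 10.5 ± 2.20 for Tef. Dbp followed at 5.53 ± 2.67 CPM per kb, Per2 at 3.70 ± 0.623, Arntl at 3.06 ± 0.314, Per3 at 2.83 ± 0.720, Ciart at 1.43 ± 0.630 and Hlf at 1.04 ± 0.504. The ranges of every pair of neighbours in this order overlapped in spleen. In lymph node Per1 came first at 15.4 ± 6.41 CPM per kb, then Nr1d2 at 12.7 ± 2.30, Nr1d1 at 8.65 ± 4.37, Tef at 7.35 ± 1.42 and Arntl at 4.35 ± 0.634. Per2 (2.90 ± 0.398), Dbp (2.18 ± 0.884), Per3 (1.55 ± 0.510), Ciart (1.28 ± 0.378) and Hlf (0.974 ± 0.324) came after. In node the ranges of neighbours did not overlap between Tef and Arntl or between Arntl and Per2, and overlapped for the other pairs.

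**Figure D1:**
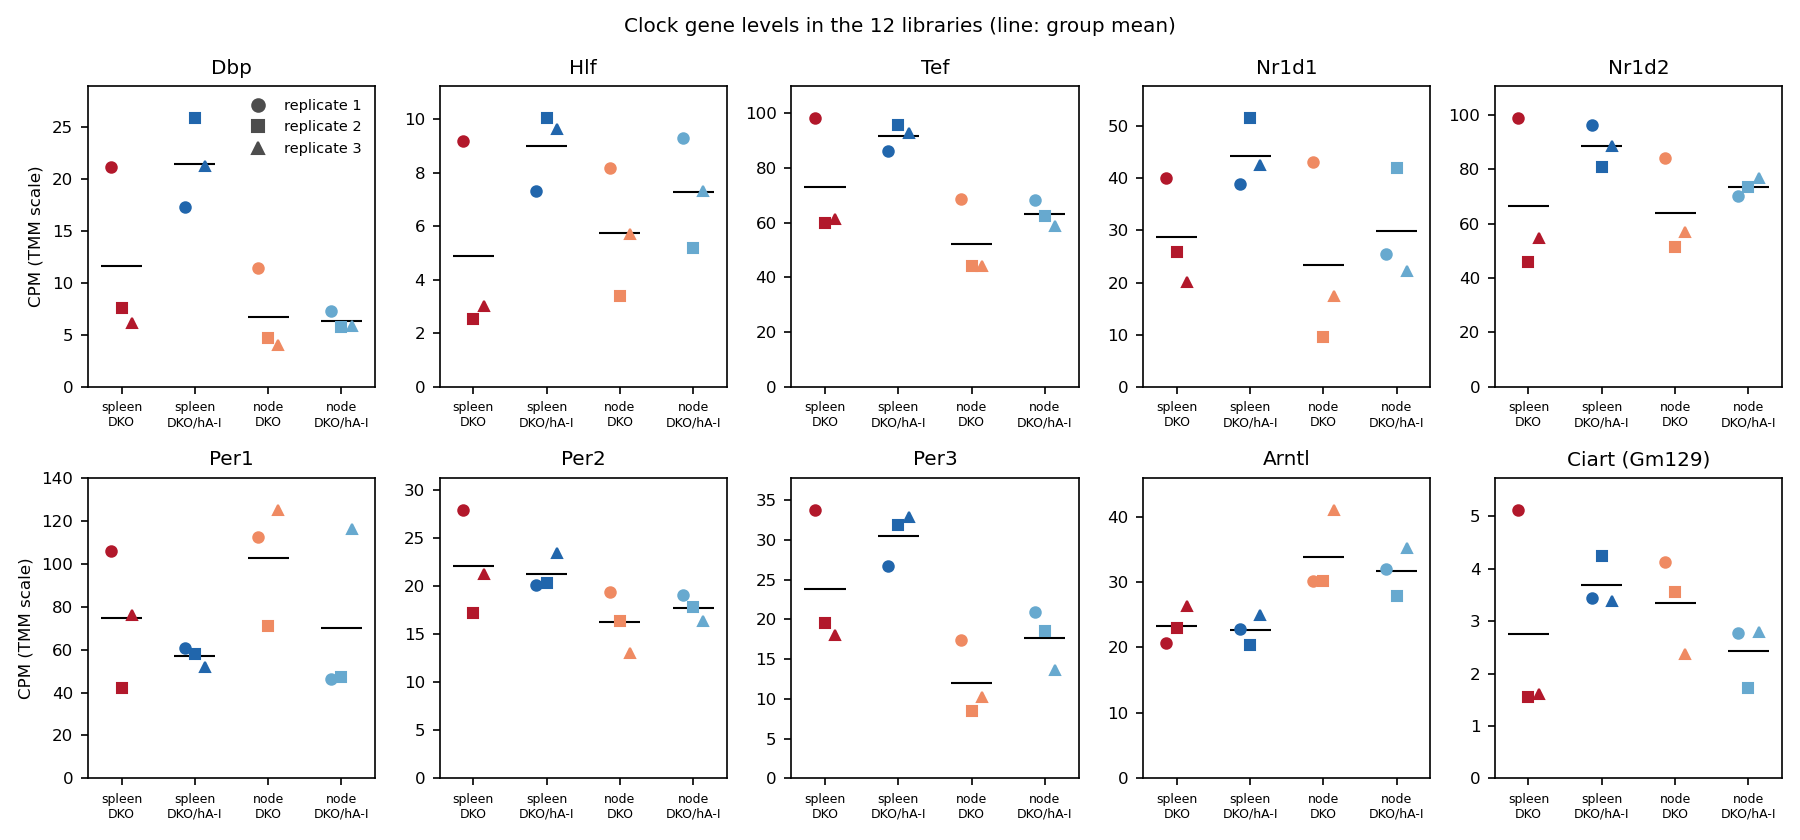
CPM of each of the 10 clock genes (y axes, each from 0) in the 3 libraries of each of the 4 groups (x axes), with the replicate shown by the symbol and the group mean by a line. In the DKO spleens and nodes the circle (replicate 1) stands above the square and the triangle for Dbp, Tef, Nr1d1 and Nr1d2, while Arntl is at 20.4 to 26.3 CPM in spleens and 27.8 to 41.05 CPM in nodes.

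Arntl, the activator of the loop, varied least. It stood at 20.6, 22.9 and 26.3 CPM in DKO spleens (replicates 1 to 3) and at 22.8, 20.4 and 25.0 CPM in DKO/hA-I spleens. Nodes had 30.1, 30.1 and 41.05 CPM in DKO and 32.0, 27.8 and 35.2 CPM in DKO/hA-I. The genotypes overlapped in both tissues, with a log2 fold change (DKO minus DKO/hA-I, ± standard error) of 0.04 ± 0.14 in spleen and 0.11 ± 0.17 in node. The highest library was 1.29 times the lowest in spleen and 1.48 times in node (ratio of the CPM values).

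Dbp, the output factor whose transcript swings widest in most tissues, stood at 21.2, 7.58 and 6.13 CPM in DKO spleens and at 17.3, 25.85 and 21.2 CPM in DKO/hA-I spleens. DKO replicate 1 thus lay among the DKO/hA-I values, and the other 2 DKO spleens lay below all of them. The highest spleen was 4.22 times the lowest, and the log2 fold change was -0.88 ± 0.47. In node Dbp was again highest in DKO replicate 1, with 11.4, 4.74 and 4.04 CPM in DKO against 7.33, 5.80 and 5.82 CPM in DKO/hA-I (0.12 ± 0.40). Part of Dbp, 539 of 2993 exonic bases, overlaps Sphk2 on the opposite strand, and whether the counting used strand is unstated in the labels used here. Sphk2, a sphingosine kinase, stood at 66.0, 62.9 and 56.9 CPM in DKO spleens and 48.5, 69.7 and 62.5 CPM in DKO/hA-I spleens. DKO/hA-I replicate 2 was the highest spleen for both genes, and the part of overlapping reads in the Dbp values was not tested.

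Tef and Hlf, the relatives of Dbp, repeated its pattern in spleen. Tef stood at 98.2, 59.9 and 61.2 CPM in DKO and 86.2, 95.6 and 92.8 CPM in DKO/hA-I spleens (-0.32 ± 0.19). Hlf stood at 9.17, 2.53 and 3.02 CPM in DKO and 7.31, 10.03 and 9.61 CPM in DKO/hA-I spleens (-0.88 ± 0.45). For both genes replicates 2 and 3 of DKO were the lowest spleens, and DKO replicate 1 was not among the low values. In nodes Tef stood at 68.7, 44.2 and 44.3 CPM in DKO against 68.5, 62.5 and 58.95 CPM in DKO/hA-I (-0.25 ± 0.19). Hlf in nodes stood at 8.18, 3.38 and 5.70 CPM in DKO against 9.28, 5.17 and 7.33 CPM in DKO/hA-I (-0.29 ± 0.35). Node DKO replicate 1 was again the highest DKO library for both.

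Nr1d1 and Nr1d2, the repressors of Arntl, were also lowest in replicates 2 and 3 of the DKO spleens. Nr1d1 stood at 40.15, 25.9 and 20.1 CPM in DKO and 38.85, 51.5 and 42.5 CPM in DKO/hA-I spleens (-0.62 ± 0.24). Nr1d2 stood at 98.75, 45.75 and 54.8 CPM in DKO and 96.2, 80.75 and 88.7 CPM in DKO/hA-I spleens (-0.41 ± 0.27). DKO replicate 1 reached the DKO/hA-I values for both receptors. In nodes Nr1d1 ranged more widely than any other member, from 43.15, 9.47 and 17.5 CPM in DKO to 25.4, 41.9 and 22.3 CPM in DKO/hA-I (-0.32 ± 0.50). Nr1d2 in nodes stood at 84.1, 51.3 and 56.8 CPM in DKO and 70.1, 73.35 and 76.8 CPM in DKO/hA-I (-0.18 ± 0.19). Nr1d1 shares 263 of 3077 exonic bases with Thra on the opposite strand. Thra, a thyroid hormone receptor, stood at 17.6, 26.0 and 21.4 CPM in DKO spleens and 20.5, 18.4 and 19.9 CPM in DKO/hA-I spleens, so its highest spleen was one of the low ones for Nr1d1. The part of overlapping reads in the Nr1d1 values was not tested.

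Among the repressors that act on the CLOCK pair, Per3 and Ciart were, like Dbp, lowest in replicates 2 and 3 of the DKO spleens. Per2 was lowest in DKO replicate 2, but DKO replicate 3 (21.2 CPM) lay among the DKO/hA-I spleens. Per3 stood at 33.8, 19.6 and 18.1 CPM in DKO and 26.7, 31.9 and 32.9 CPM in DKO/hA-I spleens (-0.35 ± 0.23). Ciart, which binds the CLOCK pair and represses it, stood at 5.13, 1.55 and 1.61 CPM in DKO and 3.44, 4.245 and 3.38 CPM in DKO/hA-I spleens (-0.43 ± 0.43). Its sums over the group were 79 and 122 counts, which makes it the member of least depth. Per2 stood at 27.9, 17.2 and 21.2 CPM in DKO and 20.1, 20.4 and 23.4 CPM in DKO/hA-I spleens (0.06 ± 0.18), and all but DKO replicate 1 lay within 17.2 to 23.4 CPM. In nodes Per3 stood at 17.4, 8.46 and 10.3 CPM in DKO and 20.9, 18.5 and 13.6 CPM in DKO/hA-I (-0.52 ± 0.29), Per2 ran from 13.0 to 19.3 CPM over both genotypes (-0.11 ± 0.18) and Ciart from 1.72 to 4.14 CPM (0.47 ± 0.33). The genotypes overlapped for all 3 genes in both tissues. Ciart did not follow Dbp in node DKO replicate 2, where Ciart was second highest of the nodes (3.55 CPM) and Dbp second lowest (4.74 CPM).

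Per1 had a different order of libraries. It stood at 106, 42.3 and 76.3 CPM in DKO and 60.96, 58.3 and 52.1 CPM in DKO/hA-I spleens (0.39 ± 0.30), so the DKO spleens held both the highest values and the lowest. In nodes it stood at 113, 71.1 and 125 CPM in DKO and 46.2, 47.15 and 117 CPM in DKO/hA-I (0.58 ± 0.39). Per1 is, beside its place in the loop, a gene that glucocorticoid hormone switches on directly, and its values were set beside 9 other glucocorticoid-induced genes, a comparison chosen after its values were seen. In spleen the summed level of those 9 genes was 766, 359 and 621 CPM in DKO and 563, 438.5 and 382 CPM in DKO/hA-I. The 6 spleens had the same order by Per1, by the 9 genes and by Tsc22d3, the glucocorticoid-induced leucine zipper gene (243.5, 83.05 and 198 CPM in DKO and 184, 119 and 96.3 CPM in DKO/hA-I). Tsc22d3 is among the 9, so its order is not a further agreement. It also stands in the lists of other clock genes used below, as a rhythmic output gene. Tsc22d3 and Ddit4 weighed most in the spleen sums, with means of 175 and 173 CPM in DKO and 133 and 116 CPM in DKO/hA-I. Fkbp5, also among the 9, had another order. Its value in spleen DKO replicate 3 (68.6 CPM) lay below all 3 DKO/hA-I spleens (74.5 to 84.3 CPM). In nodes the 9 genes summed to 853, 578 and 914 CPM in DKO and 499.7, 505 and 1118 CPM in DKO/hA-I. By the 9 genes the nodes had the order of Per1 except that the first and second places, DKO replicate 3 and DKO/hA-I replicate 3, were exchanged. Tsc22d3 alone departed further in nodes. It was lowest in DKO replicate 2 (191 CPM), while Per1 was lowest in DKO/hA-I replicate 1. By Dbp the same spleens were ordered otherwise, with DKO/hA-I replicate 2 first and DKO/hA-I replicate 3 next. No hormone level was analysed here, and the part of hormone in the Per1 values was not tested.

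**Figure D2:**
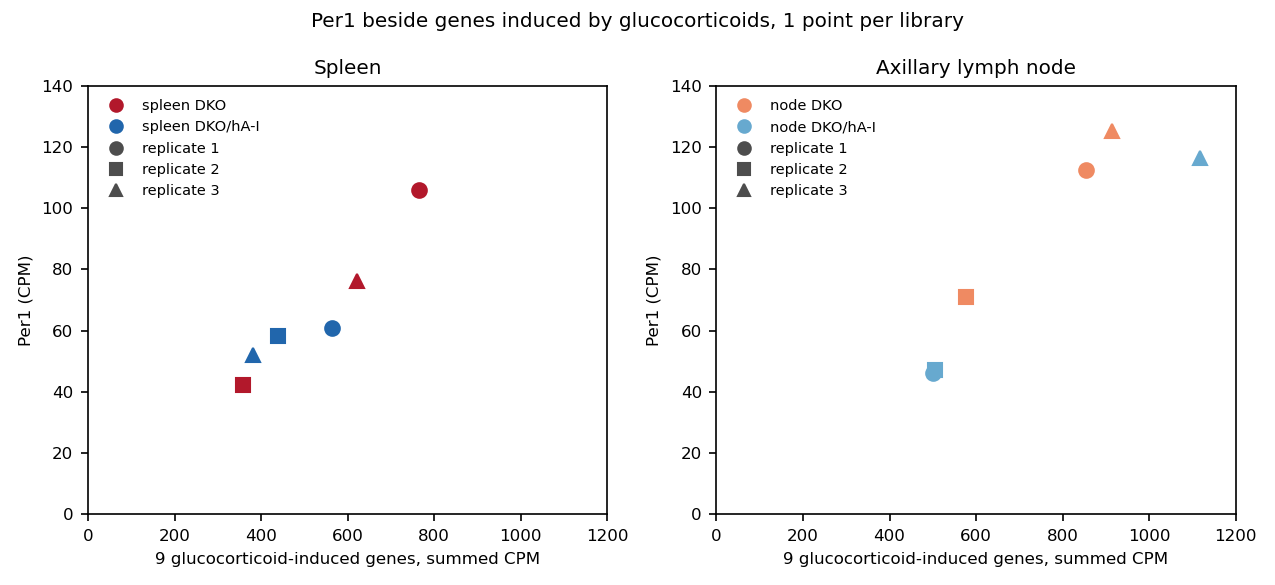
Per1 (y axis, CPM) against the summed CPM of 9 other glucocorticoid-induced genes (x axis) in the 6 spleens (left) and 6 lymph nodes (right), 1 point per library. In spleen the order of the libraries is the same on both axes, from 42.3 to 106 CPM of Per1, and in node the 3 libraries above 100 CPM of Per1 are also the 3 of highest summed CPM, 853 to 1118.

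Taking all 6 spleens, edgeR called 0 of the 10 members between the genotypes at a Benjamini-Hochberg adjusted p under 0.05, where it called 1 of 14009 genes tested (0.00714%). The members' median log2 fold change was -0.38, against 0.01 over all genes tested, and 3 of 10 were positive. In node it called 0 of 10 members where 962 of 14012 genes (6.87%) passed. The median of the members was -0.15 there, against 0.01 over all genes tested. The groups overlapped for all 10 members in both tissues, while they did not overlap for 10.5% of spleen genes and 30.5% of node genes. In the authors' deposited table, too, 0 members had a q-value under 0.05 in either tissue. Since the members were picked on this contrast, nothing is read from these counts.

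The difference between the genotypes in spleen depended on DKO replicate 1. This library was the highest of the 6 spleens for Tef, Nr1d2, Per1, Per2, Per3 and Ciart, whereas DKO replicate 2 was the lowest for 6 members and DKO replicate 3 for Dbp, Nr1d1 and Per3. When each spleen was left out in turn, 0 members were called except without DKO replicate 1, where 6 were called, all lower in DKO, against 0.12% of 14163 genes called lower. As the members were picked on this contrast, and the library left out is the one that ran against the others, nothing is read from that count. The log2 fold changes were -1.66 ± 0.21 for Dbp, -1.71 ± 0.25 for Hlf, -0.96 ± 0.17 for Nr1d1, -0.83 ± 0.13 for Nr1d2, -0.71 ± 0.15 for Per3 and -0.61 ± 0.12 for Tef. Ciart stood at -1.23 ± 0.29, Per2 at -0.16 ± 0.16, Per1 at 0.04 ± 0.21 and Arntl at 0.10 ± 0.15. The 2 remaining DKO spleens lay below all DKO/hA-I spleens for these 6 genes and Ciart, a separation in that direction shown by 15.2% of spleen genes. Without DKO/hA-I replicate 1 the groups separated in the same direction for Dbp, Hlf and Nr1d1 (10.9% of genes). Without DKO replicate 2 Per1 was higher in DKO without overlap, where 19.8% of genes did not overlap in either direction. The number of genes called over the whole table rose from 1 to 167 in the fit without DKO replicate 1.

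The animal codes of the labels bear on this library. Its code has the middle number 56, which no other spleen carries, while numbers 55 and 57 hold both genotypes. Within number 55, Dbp stood at 6.13 CPM in the 1 DKO spleen and 17.3 CPM in the 1 DKO/hA-I spleen, and 7 of 10 members were lower in DKO. Within number 57, Dbp stood at 7.58 CPM in 1 DKO spleen and at a mean of 23.5 CPM in 2 DKO/hA-I spleens, and 9 of 10 members were lower. A fit with the middle number as a block, which gives replicate 1 no weight in the contrast, called the same 6 members, all lower, with 1.14% of 14009 genes called lower (515 genes called in all). With replicate 1 given no weight, this fit repeats the one without it and is no separate evidence. In node every DKO library carries the middle number 75, and the DKO/hA-I libraries carry 76, 77 and 78. Genotype and whatever the middle number stands for therefore cannot be told apart in any comparison of genotypes in node. The labels do not say what the middle number stands for.

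**Figure D3:**
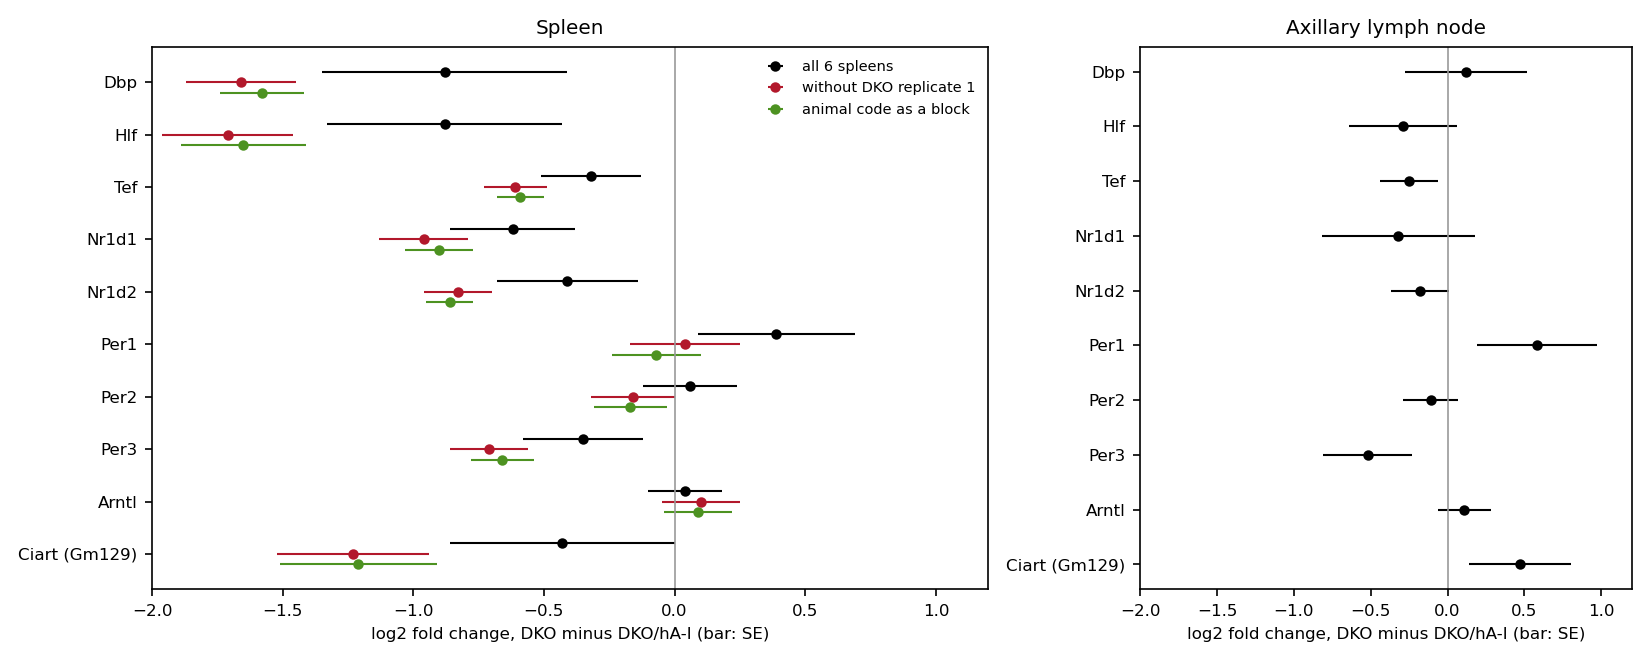
Log2 fold change between genotypes (x axes, DKO minus DKO/hA-I, bars are standard errors) of the 10 members (y axes) in spleen (left, under 3 fits) and lymph node (right). Dbp in spleen moves from -0.88 with all 6 libraries to -1.66 without DKO replicate 1 and -1.58 with the animal code as a block, while Arntl stays between 0.04 and 0.10.

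Other measures also set these spleens apart. The summed level of 8 erythroid genes was 6756, 39510 and 18800 CPM in DKO spleens and 10820, 18270 and 10210 CPM in DKO/hA-I spleens, so DKO replicate 1 had the lowest value and replicate 2 the highest. The 7 heat shock genes summed to 6457, 2219 and 3945 CPM in DKO and 3150, 1927 and 2384 CPM in DKO/hA-I. The 15 immediate early genes summed to 865 to 1085 CPM in DKO and 749.6 to 855.6 CPM in DKO/hA-I spleens, without overlap, and 0 of 15 were called (5 with an unadjusted p under 0.05 in edgeR, 93.3% with a positive log2 fold change). Of the erythroid genes 0 of 8 tested were called between genotypes in spleen (median log2 fold change 0.78), and of the heat shock genes 0 of 7 (median 1.11). Red pulp macrophage genes summed to 2777 to 3198 CPM in DKO and 2883 to 3044 CPM in DKO/hA-I, and B cell genes to 2509 to 2703 and 2524 to 3011 CPM. The part of any of these in the clock gene values was not tested.

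In lymph node, too, DKO replicate 1 was the highest library for 6 members (Dbp, Tef, Nr1d1, Nr1d2, Per2 and Ciart). Without it the 2 remaining DKO nodes lay below all DKO/hA-I nodes for Dbp, Tef, Nr1d1, Nr1d2 and Per3, a separation in that direction shown by 21.9% of node genes, and edgeR called 0 members. The node groups differed in other cell type markers. The 9 genes of lipid-laden macrophages summed to 1762 to 8956 CPM in DKO and 699 to 955 CPM in DKO/hA-I (8 of 9 called higher in DKO). The 6 brown fat genes summed to 2.16 to 14.9 CPM in DKO and 222 to 765 CPM in DKO/hA-I (6 of 6 called lower in DKO). Of 10 adipocyte genes 8 were called lower in DKO (median log2 fold change -4.51), with summed levels that overlapped (622 to 2513 against 841 to 2660 CPM). Lpl stands in both the adipocyte list and the list of lipid-laden macrophages, so their sums share a gene. The 6 fibroblast genes summed to 1358 to 2533 CPM in DKO and 663 to 822 CPM in DKO/hA-I (3 called higher), and the 5 neutrophil genes to 140 to 976 and 48.8 to 155 CPM (1 called higher, median 2.57). The 6 T cell genes summed to 529 to 828 CPM and 936 to 1083 CPM, with 0 of 6 tested called. The part of these cells in the node values of the clock genes was not tested.

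Dbp was set against Arntl library by library as the log2 ratio of Dbp to Arntl. The highest library was only 1.29 (spleen) and 1.48 (node) times the lowest for Arntl, against 4.22 and 2.83 times for Dbp. Within a tissue the ratio therefore mostly repeats Dbp and cannot by itself show an antiphase. This log2 ratio was 0.04, -1.57 and -2.07 in DKO spleens and -0.40, 0.34 and -0.24 in DKO/hA-I spleens. It was -1.38, -2.62 and -3.29 in DKO nodes and -2.10, -2.22 and -2.56 in DKO/hA-I nodes. In both tissues the DKO libraries spanned a wider range than the DKO/hA-I libraries, with DKO replicate 1 highest among them and replicate 3 lowest. The log2 ratio of Nr1d1 to Arntl was 0.95, 0.18 and -0.39 in DKO and 0.76, 1.33 and 0.76 in DKO/hA-I spleens, and 0.52, -1.65 and -1.22 in DKO and -0.33, 0.59 and -0.66 in DKO/hA-I nodes. Spleen DKO replicate 3 had the most Arntl and the least Dbp and Nr1d1 of the spleens, and spleen DKO/hA-I replicate 2 the least Arntl and the most Dbp, Hlf and Nr1d1. Node DKO replicate 3 likewise had the most Arntl and the least Dbp of the nodes. Against this, the node with the least Arntl, DKO/hA-I replicate 2, had low Dbp (5.80 CPM) and the least Ciart (1.72 CPM), and spleen DKO/hA-I replicate 3 had high values of both Dbp (21.2 CPM) and Arntl (25.0 CPM).

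**Figure D4:**
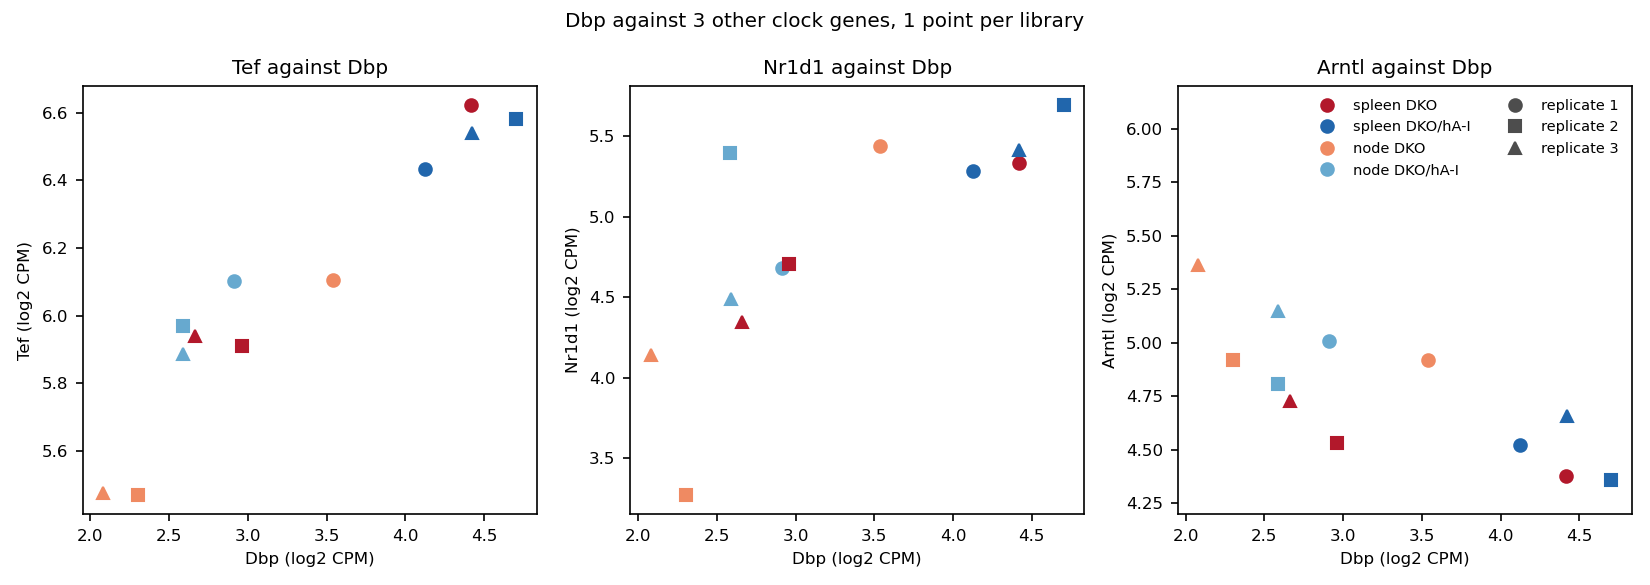
Log2 CPM of Tef, Nr1d1 and Arntl (y axes, left to right) against that of Dbp (x axes) in the 12 libraries, coloured by group with the replicate as symbol. Tef is high where Dbp is high, node DKO/hA-I replicate 2 has high Nr1d1 (41.9 CPM) at low Dbp (5.80 CPM), and all 6 nodes lie above all 6 spleens for Arntl.

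Likeness to Dbp was measured as Pearson's r of log2 CPM over the 12 libraries, each centred on its group mean, across 11897 genes with a mean of at least 5 CPM and the members. With 12 libraries in 4 groups of 3, it describes how the replicates of a group deviate together. Tef had an r of 0.98, Per3 0.90, Hlf 0.85, Ciart 0.85, Nr1d2 0.82, Per2 0.80 and Nr1d1 0.73. Per1 had an r of 0.29 (percentile 78.2 of r among these genes) and Arntl of -0.60 (percentile 5.7). Spleen and node DKO replicate 1 were the libraries farthest from the median of Dbp. They were left out of r, but the group means used for centring still included them. So computed, r was 0.91 for Tef, 0.73 for Per3, 0.72 for Ciart, 0.63 for Hlf and 0.51 for Per2. It was 0.42 for Nr1d1, 0.36 for Nr1d2, -0.10 for Per1 and -0.46 for Arntl. Much of the likeness of Nr1d2 and Nr1d1 thus rests on those libraries. The other DKO replicates kept the offset from these group means, so none of these values is free of replicate 1. Outside the members, the genes most like Dbp were Notch1 (r = 0.90), Pja1 (0.89), Rhbdl3, Fgfr3 and Sdr39u1 (each 0.88) and Rhof (0.87). The least like it were Klf1 and Uxt (each -0.94), Mrps31 (-0.93), Tspan8 (-0.91), Bbs12 (-0.90) and Mastl (-0.89). Klf1, a transcription factor of red cell precursors, stood at 36.0, 122 and 103 CPM in DKO and 75.9, 43.6 and 53.6 CPM in DKO/hA-I spleens, and at 0 to 0.272 CPM in nodes, so its likeness rests on spleen.

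For Arntl the genes of highest r were Ctnnd2 (0.90), Slc35a1, Slc16a3 and Zdhhc3 (each 0.88) and Hpgds and Irg1 (each 0.87). Those of lowest r were Csrp2 (-0.93), Dph2 (-0.90), Zfp235 (-0.89) and Zfp768, Zcwpw1 and Tbc1d25 (each -0.88). Among the members the values ran from -0.60 for Dbp, -0.52 for Tef, -0.50 for Per2, -0.47 for Ciart, -0.46 for Per3, -0.43 for Nr1d1 and -0.31 for Nr1d2 to -0.15 for Hlf and 0.31 for Per1. The libraries farthest from the median of Arntl were node and spleen DKO replicate 3. With them left out of r, Dbp had an r of -0.40, Nr1d1 of -0.41 and Tef of -0.37. The group means used for centring again included the libraries left out, so these values are not free of them.

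The spread among replicates differed between the members. The residual biological coefficient of variation in spleen was 0.393 for Dbp, 0.376 for Hlf, 0.337 for Ciart, 0.258 for Per1, 0.237 for Nr1d2 and 0.211 for Nr1d1, against a median of 0.134 over 14009 genes. These 6 members lay above the 90th percentile of all genes tested, with Dbp at percentile 99.2. Arntl had 0.123, at percentile 32.5. In node Nr1d1 (0.433), Dbp (0.343) and Per1 (0.339) lay above the 90th percentile, where the median gene had 0.184, and Arntl (0.169) lay at percentile 39.7. Tef (0.183), Nr1d2 (0.184) and Per2 (0.177) lay near the median gene in node, at percentiles 49.7, 50.2 and 45.7, and Tef lay at percentile 79 in spleen.

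Levels in spleen and node were compared within each genotype, a contrast that was not used to pick the members. In DKO, edgeR called Per3 higher in spleen (23.9 ± 8.67 against 12.1 ± 4.75 CPM, mean ± SD, n = 3, log2 fold change 0.97 ± 0.29, edgeR adjusted p = 0.0294) and Arntl lower (23.3 ± 2.88 against 33.8 ± 6.32 CPM, -0.54 ± 0.16, edgeR adjusted p = 0.0300). Both calls lie beside 22.8% of 14608 genes called between these groups, so 2 of 10 is near the background. In DKO/hA-I, Dbp was higher in spleen (21.5 ± 4.30 against 6.32 ± 0.877 CPM, 1.76 ± 0.45, edgeR adjusted p = 0.0116) and Arntl lower (22.7 ± 2.34 against 31.7 ± 3.71 CPM, -0.48 ± 0.16, edgeR adjusted p = 0.0441), where 25.7% of genes were called. All 6 spleens lay below all 6 nodes for Arntl, and all 3 DKO/hA-I spleens above all 3 DKO/hA-I nodes for Dbp.

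The remaining members gave no call between tissues in edgeR with all libraries. Per3 in DKO/hA-I stood at 30.5 ± 3.34 against 17.7 ± 3.72 CPM (0.78 ± 0.28, edgeR adjusted p = 0.0583), and was called by DESeq2 (adjusted p = 0.0342), by limma voom (adjusted p = 0.041) and with the replicate block in edgeR (adjusted p = 0.0287). Dbp in DKO stood at 0.76 ± 0.46 (edgeR adjusted p = 0.267, with a 95% interval of -0.14 to 1.66). Tef stood at 0.48 ± 0.21 in DKO and 0.53 ± 0.21 in DKO/hA-I, with edgeR adjusted p values of 0.116 and 0.0774. For Nr1d1, Nr1d2, Per1, Per2, Hlf and Ciart the log2 fold changes ran from -0.46 to 0.60. The Per3 call in DKO was lost without spleen DKO replicate 1 (0.65), node DKO replicate 2 (0.78) or node DKO replicate 3 (0.84), and the Arntl call in DKO without spleen DKO replicate 1 (-0.43), spleen DKO replicate 2 (-0.52), node DKO replicate 3 (-0.37) or node DKO/hA-I replicate 1 (-0.51). The Dbp call in DKO/hA-I was lost without node DKO/hA-I replicate 2 (1.69), and the Arntl call there without spleen DKO replicate 2 or any one of 5 of the 6 DKO/hA-I libraries (-0.56 to -0.40). No direction turned. Tissue, animal and any difference in the hour of sampling cannot be told apart here.

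**Figure D5:**
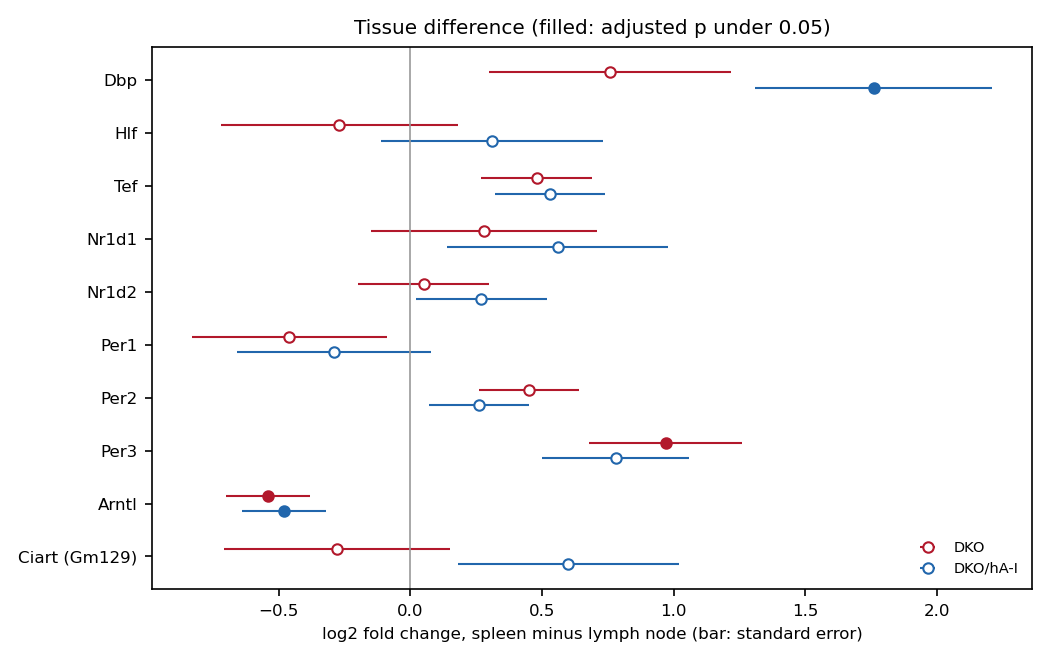
Log2 fold change between tissues (x axis, spleen minus lymph node, bars are standard errors) of the 10 members (y axis) in DKO and in DKO/hA-I mice, with filled points where the edgeR adjusted p is under 0.05. Arntl lies below 0 in both genotypes (-0.54 and -0.48), and Dbp (1.76 in DKO/hA-I) and Per3 (0.97 in DKO) lie above it.

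Whether the genotype differences themselves differed between tissues was tested as an interaction in the fit of all 12 libraries. Of the 10 members 0 passed, where 3.33% of 14608 genes did, and 0 had an unadjusted p under 0.05. Dbp had the largest value (node minus spleen, 0.99 ± 0.64, 95% interval -0.26 to 2.25), followed by Ciart (0.87 ± 0.60) and Hlf (0.58 ± 0.62), and Tef had the smallest (0.05 ± 0.29).

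Other clock genes were read from 5 lists holding 23 genes. In spleen, 0 of 19 tested were called between the genotypes (1 with an unadjusted p under 0.05 in edgeR, median log2 fold change 0.06). That gene was Cry2, a Cryptochrome repressor, at 19.6, 20.2 and 17.8 CPM in DKO and 24.0, 27.0 and 25.6 CPM in DKO/hA-I spleens (-0.41 ± 0.13, edgeR adjusted p = 0.929). Its 3 DKO spleens all lay below the DKO/hA-I spleens, DKO replicate 1 included, as for 6.26% of 14009 spleen genes and none of the 10 members. Cry2 was named for its low p, so this separation is no separate evidence. Npas2, the partner of Arntl that can stand in for CLOCK, had too few counts to be tested in spleen, at 0.109, 2.14 and 2.82 CPM in DKO and 0.881, 0 and 0.606 CPM in DKO/hA-I. Its lowest values were in DKO/hA-I replicate 2 and DKO replicate 1, and its highest in the spleens where Dbp was low. Clock itself stood at 47.6 to 60.6 CPM over the 6 spleens (-0.12 ± 0.12).

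In node, 3 of 22 other clock genes tested were called between the genotypes, all higher in DKO, where 6.87% of all genes were called and 553 of those 962 were higher. Bhlhe41 (DEC2), a repressor that competes for E-boxes, stood at 12.6, 18.1 and 13.7 CPM in DKO and 3.34, 2.99 and 2.91 CPM in DKO/hA-I nodes (2.27 ± 0.22, edgeR adjusted p = 0.00729). Wee1, a cell cycle kinase under clock control, stood at 16.9, 30.96 and 19.1 CPM in DKO and 11.3, 10.2 and 8.41 CPM in DKO/hA-I (1.17 ± 0.26, edgeR adjusted p = 0.0402). Lonrf3, a rhythmic gene in many tissues, stood at 15.01, 6.43 and 26.5 CPM in DKO and 3.43, 3.26 and 2.69 CPM in DKO/hA-I (2.38 ± 0.48, edgeR adjusted p = 0.031). The groups did not overlap for these 3 genes, which were named because they were called, as for 30.5% of node genes. Cry1 (-0.13 ± 0.16) and Cry2 (-0.30 ± 0.16) were not called in node, and Npas2 stood at 5.75, 3.55 and 11.05 CPM in DKO and 2.69, 2.63 and 3.13 CPM in DKO/hA-I (1.31 ± 0.41, edgeR adjusted p = 0.0984).

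Between tissues, 2 of 22 other clock genes were called higher and 7 lower in spleen in DKO, and 4 higher and 4 lower in DKO/hA-I, where 22.8% and 25.7% of all genes were called. Npas2 was lower in spleen in both genotypes, like Arntl (-2.01 ± 0.67 in DKO and -2.44 ± 0.82 in DKO/hA-I, edgeR adjusted p = 0.0469 and 0.0433). Nfil3, which binds the same D-boxes as Dbp and represses them, was lower in spleen in DKO (-1.29 ± 0.37, edgeR adjusted p = 0.0235) and stood at -0.90 ± 0.37 in DKO/hA-I (edgeR adjusted p = 0.0994).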

How the data were processed

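Libraries of poly(A) RNA were sequenced on the Illumina Genome Analyzer IIx, per the labels. The deposited tables, 1 per tissue, hold raw counts per gene symbol and library, per the file headers, beside the authors' comparison of the genotypes, of which only the q-value (a p-value adjusted by the authors) was used. The submitters' processing notes name Trimmomatic, Bowtie, TopHat, Cuffdiff and GRCm38 (mm10). Versions, gene annotation, read counting and strand use were not stated in these sources. Columns were matched to samples by the animal code in the labels.

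The members, the gene lists and the tests were chosen with earlier results of these data known. Genes named are the 10 members, members of 5 lists of other clock genes taken by adjusted p, and the 6 genes most and least like Dbp and Arntl, and not all genes of this rule are reported here.

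Tests used the edgeR 4.0.16 package under R 4.3.3 on the counts (filterByExpr with a minimum count of 10 and a minimum total of 15, TMM, robust estimateDisp and glmQLFit, glmQLFTest), with Benjamini-Hochberg adjustment over all genes tested and a threshold of 0.05. Genotypes were compared within the 6 libraries of a tissue, and tissues and the interaction in 1 fit of 12 libraries. Standard errors were derived from the log2 fold change and the F statistic of the edgeR test. The 95% intervals used the normal quantile of 1.96, so with so few libraries they are narrower than the edgeR test implies. Total counts of 5911835 to 11950825 per library set the precision. CPM was scaled over all 12 libraries, and log2 CPM used a prior count of 2. Exon lengths and overlaps are from GENCODE vM21. Each library has an animal code of its own, and p-values reflect the spread among libraries. Alternatives were RLE and upper quartile scaling, no filter, DESeq2 1.42.0, limma voom 3.58.1, a replicate block, an animal code block and leaving out each library. The fits were first tested on simulated data with known changes.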

Additional observations from a re-analysis of the deposited data

Results flagged for a closer look

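The genotype difference of Bhlhe41 was larger in lymph node than in spleen by 2.18 ± 0.32 on the log2 scale (interaction in edgeR, adjusted p = 0.00473), with 2.91 to 18.1 CPM over the nodes and 6.03 to 10.4 CPM over the spleens. The genotype difference of Lonrf3 was larger in node than in spleen by 2.75 ± 0.60 (edgeR adjusted p = 0.0266), with 2.69 to 26.5 CPM over the nodes and 1.96 to 3.79 CPM over the spleens. Both stand beside 3.33% of genes called for this interaction, and neither is one of the 10 members.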

How the results depend on the processing

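In spleen, the count of members called between genotypes was 0 with all libraries and under RLE and upper quartile scaling, no filter, DESeq2, limma voom and the replicate block, and 6 with the animal code block. Genes called in all numbered 1 in edgeR, 5 in DESeq2 and 515 with the animal code block. Leaving out 1 library gave 0 to 6 members and 1 to 167 genes, with the highest of both without DKO replicate 1. In node the members called stayed at 0 under every alternative, while genes called in all numbered 962 in edgeR, 1967 in DESeq2, 438 with the replicate block and 115 to 2245 without 1 library (115 without DKO/hA-I replicate 2, 2245 without DKO replicate 2). Between tissues, members called in DKO numbered 2, and 0 to 3 without 1 library (0 without node DKO replicate 3). In DKO/hA-I they numbered 2, 3 in DESeq2 and in limma voom (Per3 added), 4 with the replicate block and 1 to 4 without 1 library. Without a filter on low counts they numbered 1, as the Arntl call was lost (-0.48 ± 0.16, edgeR adjusted p = 0.0528). For the interaction, genes called in all numbered 487 in edgeR, 973 in DESeq2, 253 in limma voom, 299 with the replicate block and 179 to 1160 without 1 library (179 without spleen DKO replicate 2, 1160 without node DKO replicate 2), and members 0 throughout. No called value turned its direction. The causes were not tested.

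Replicate numbers did not pair the libraries: deviations of same-numbered libraries within a tissue had an r of -0.14 to 0.11 over 6 pairs, so the block results above describe a shared number only. Of the 6 genes most like Dbp, 1 remained when libraries were centred on the tissue mean and 2 with Spearman's rho, and of the 6 most like Arntl 1 and 1, so those names depend on the measure. The log2 ratio of Dbp to Arntl moved by less than 0.05 in every library with a prior count of 0.5. Depth limits Ciart most, with 75 to 122 counts per group.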
